A study of Mus musculus with 1507 samples.

Results

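The genes described here are the nuclear genes of oxidative phosphorylation, 96 of the 21971 protein-coding genes and of the 47643 genes in all in the merged gene models that the authors built on GENCODE vM9 (GRCm38, mouse). They were chosen by name, as the protein-coding genes whose symbol starts with *Ndufa*, *Ndufb*, *Ndufc*, *Ndufs*, *Ndufv*, *Sdha*, *Sdhb*, *Sdhc*, *Sdhd*, *Uqcr*, *Cox4i*, *Cox5*, *Cox6*, *Cox7*, *Cox8* or *Atp5*, without pseudogenes. By name, 45 belong to complex I, 8 to complex II, 8 to complex III, 18 to complex IV and 17 to complex V, and 12 of the 96 were listed as assembly factors rather than subunits. *Atp5s* and *Atp5sl*, put in complex V by their names, are *Dmac2l* and *Dmac2* in RefSeq. Membership used no measured value.

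Oxidative phosphorylation takes place in the inner membrane of the mitochondrion. Complex I (NADH dehydrogenase) and complex II (succinate dehydrogenase) pass electrons to ubiquinone, complex III (the cytochrome bc1 complex) passes them to cytochrome c, and complex IV (cytochrome c oxidase) passes them to oxygen. Complexes I, III and IV pump protons, and complex V (ATP synthase) lets the protons return through its membrane part and makes ATP in its F1 head. The mitochondrial genome encodes only a core of these subunits, and the nuclear genome encodes the rest. Several subunits of complex IV, and the c subunit of ATP synthase, have more than one nuclear gene, and some of these genes are known for their use in heart, muscle or testis.

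All cells were of 5G6GR, 1 mouse embryonic stem (ES) cell line made by random integration of a vector in which *Gata6* is fused to the glucocorticoid receptor, with a puromycin resistance gene, in EB5 cells. Dexamethasone turns the fusion protein on, and the cells become primitive endoderm (PrE), the layer of the early embryo that lines the blastocoel. ES cells were grown with puromycin and blasticidin, and the differentiation medium held dexamethasone in place of blasticidin. The addition of dexamethasone and the removal of blasticidin thus cannot be told apart in any comparison of PrE with ES cells or of times. Single cells were sequenced by RamDA-seq, which primes cDNA along the whole RNA, at 12, 24, 48 and 72 h of dexamethasone and at 0 h, and as untreated ES cells sorted in S, G2/M or G1 phase. PrE and ES cells were also sorted together onto 4 plates, called B1, B2, E1 and E2, and captured on the C1 microfluidic system (39 PrE cells and 16 ES cells). The plate libraries were made by a modified protocol, with a shorter reverse transcription and a changed second-strand step. The C1 libraries had reaction mixes of their own. A difference in level between time course, plates and C1 thus cannot be told apart from a difference of protocol. For the libraries made from RNA, 3 of RamDA-seq and 4 of SMART-Seq v4, which primes at the poly(A) tail, used 10 pg of ES cell RNA, and 3 of ribosomal RNA-depleted RNA (rdRNA-seq) and 3 of poly(A)-selected RNA (paRNA-seq) used 1 µg.

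The time course held 92, 91, 93, 87 and 93 cells at 0, 12, 24, 48 and 72 h, the phases 91 cells in S, 93 in G2/M and 93 in G1, and the plates 38, 47, 56 and 54 PrE cells and 58, 49, 40 and 42 ES cells on B1, B2, E1 and E2. Levels are given as TPM, the share of a library that a transcript takes once its length is allowed for, scaled to the same sum in every cell, so a change in the amount of RNA per cell cannot be told apart from a change in the other RNAs. A median of 16656 to 17901 genes per cell was at or above 0.1 TPM in the time course and of 13999.5 to 14514.5 on the plates. The summed level of 10 PrE markers was 219, 914, 2801, 5866 and 8116 TPM at 0, 12, 24, 48 and 72 h, and 9189 to 11728 TPM in PrE cells against 234 to 1588 TPM in ES cells on the plates. *Nanog*, which marks ES cells, was at 1.20 to 2.05 TPM in PrE cells against 82.1 to 118 TPM in ES cells on the plates, whereas *Dppa5a*, another ES marker, stayed high (1900 to 5114 TPM against 1826 to 2334 TPM). On the plates, 12 PrE cells and 15 ES cells had fewer genes than the rest of their set by over 1.5 interquartile ranges, and 22 of these 27 low-gene cells had under 200 genes. Without the low-gene cells the PrE markers summed to 9389 to 10463 TPM in PrE cells and to 234 to 277 TPM in ES cells. The summed level of 7 fibroblast markers was at most 2.19 TPM in any set.

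At 0 h, 29 of the 96 genes had a mean of at least 100 TPM, 78 had at least 10 TPM and 6 were under 1 TPM. The highest was *Atp5b*, the catalytic beta subunit of the F1 head, at 1037 ± 155 TPM (SD over 92 cells). It was followed by *Atp5a1*, the alpha subunit, at 418 TPM, by *Ndufa4*, named as a complex I gene and now counted with complex IV, at 397 TPM, by *Atp5g3*, which encodes the c subunit, at 374 TPM, and by *Cox4i1*, at 372 TPM. The genes under 1 TPM were *Atp5s* and the tissue isoforms *Cox4i2*, *Cox6a2*, *Cox7b2*, *Cox8b* and *Cox8c*. The transcript with the most TPM was annotated as protein-coding for 78 of the 96 genes at 0 h and as another type for 18. For *Ndufb4* it was a retained intron that held 92.8% of the gene's TPM, and for *Cox7c* a processed transcript that held 84.1%. Exons of 28 of the genes overlapped a gene on the other strand, and since the libraries were counted without strand, reads of the pair cannot be told apart.

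The plates are the only single-cell data with several sets of each cell type, and they ask which of these genes differ between PrE and ES cells. Of the 90 genes tested, 16 (17.8%) were higher and 17 (18.9%) were lower in PrE cells (limma on the 8 plate means of log2(mean TPM + 1), Benjamini-Hochberg adjusted p of at most 0.05). Of all 16419 genes tested, 35.1% were higher and 25.1% were lower. The median difference was 0.04 over the 90 genes and 0.09 over all genes, on that log2 scale. These means keep the low-gene cells. Without those cells 21 were higher and 20 were lower of 90 genes, where 36.1% and 29.6% of all genes were. The medians were then 0.006 and 0.06. When TPM were rescaled over nuclear protein-coding genes, which lowered the median difference of all genes by 0.14, the split was 13 higher and 22 lower of 93 genes, where 27.6% of all genes were higher and 29% were lower. Each plate held both cell types, and with the plate as a block in the fit 24 were higher and 23 were lower, where 37% and 26.8% of all genes were. The block kept all 33 calls and added 14, with *Cox6b1*, *Ndufc2*, *Ndufa3*, *Ndufa4*, *Ndufb11*, *Ndufs4*, *Uqcrfs1* and *Uqcrc2* higher and *Atp5g2*, *Atp5j2*, *Ndufa6*, *Ndufb5*, *Ndufs1* and *Ndufs6* lower. The values that follow are from the fit without the block and with all cells unless stated, as are those with a plate left out. No plate was left out of the fit with the block. The plates were filled from the same line, and p-values measure only the spread between plates, which may be technical.

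Among the genes called higher, the largest log2 difference was that of *Sdhd*, one of the membrane anchors of complex II (ENSMUSG00000000171.4; chr9:50596338-50603849, minus strand, GRCm38; exons with no overlap). Its means were 97.6, 89.3, 99.4 and 86.3 TPM in PrE cells on B1, B2, E1 and E2, against 47.7, 44.3, 48.5 and 41.5 TPM in ES cells on the same plates. All 4 PrE means were above all 4 ES means, with 93.2 ± 6.37 TPM in PrE and 45.5 ± 3.20 TPM in ES cells (SD, n = 4 plates each), a log2 difference of 1.02 (SE 0.08, limma adjusted p = 7.91e-06). *Sdhc*, the other anchor, was at 27.3 ± 2.18 TPM in PrE and 28.8 ± 3.44 TPM in ES cells (adjusted p = 0.588), and *Sdha*, the flavoprotein that oxidizes succinate, at 105 ± 10.8 and 113 ± 15.8 TPM (adjusted p = 0.506). *Sdhb*, the iron-sulfur subunit of the same complex, was lower, at 37.9 ± 3.30 TPM in PrE and 47.8 ± 3.10 TPM in ES cells (log2 difference -0.33, adjusted p = 0.00933, and 0.0573 without plate E2). *Sdhaf1*, which helps to mature *Sdhb* protein, was low and rose, at 2.77 ± 0.40 TPM in PrE against 1.30 ± 0.43 TPM in ES cells (0.72, adjusted p = 0.00255). *Sdhaf2* had a wider difference, 1.95, but did not pass the test (adjusted p = 0.14), and 1 PrE cell on B2 with 28 genes detected held 97.2% of its set.

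*Atp5d*, the delta subunit in the central stalk of the F1 head (chr10:80138632-80145818, plus strand), was at 104, 86.2, 91.4 and 87.7 TPM in PrE cells against 51.1, 43, 44.8 and 49.5 TPM in ES cells on B1, B2, E1 and E2. These groups did not overlap either, and the difference was 0.96 (SE 0.09, limma adjusted p = 2.26e-05). Exons of *Atp5d* overlap *Cbarp* on the other strand. Of the 5 F1 head genes it was the only one called, with or without the plate block. The other stalk genes were *Atp5e*, at 180 ± 13.6 TPM in PrE and 190 ± 9.43 TPM in ES cells, and *Atp5c1*, whose PrE mean on plate B2 was set by 1 cell. That cell held 72.5% of the summed *Atp5c1* TPM of its set and had 55 genes detected, and the mean was 325 TPM with the low-gene cells and 102 TPM without them. *Atp5a1* was at 1367 TPM in the same set and 337 TPM without those cells, and *Atp5b* at 2722 TPM in ES cells on E1 and 1130 TPM without them.

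*Ndufa13*, a supernumerary subunit of complex I (chr8:69894188-69902558, minus strand; exons overlap *Tssk6* on the other strand), was at 57.6, 49.2, 53.7 and 47.1 TPM in PrE cells and at 34.2, 28.9, 34.1 and 30.2 TPM in ES cells. The 4 PrE means lay above the 4 ES means, a difference of 0.69 (SE 0.09, adjusted p = 0.000218). Complex I genes were called in both directions, 8 higher and 9 lower of 45. With *Ndufa13*, the higher ones were *Ndufa2*, *Ndufa8*, *Ndufb2*, *Ndufb6*, *Ndufb7*, *Ndufs7* and *Ndufab1*, the acyl carrier protein of mitochondria, which was at 288 ± 21.2 TPM in PrE and 206 ± 1.19 TPM in ES cells (0.47, adjusted p = 0.000632). *Ndufa2* was at 108 ± 8.36 TPM in PrE and 68.3 ± 3.85 TPM in ES cells (0.65, adjusted p = 0.000143). Its exons overlap *Tmco6*, and those of *Ndufb2* overlap *Braf*, on the other strand. *Ndufb6*, at 73.9 ± 17.8 TPM in PrE and 51.7 ± 9.10 TPM in ES cells (adjusted p = 0.0374), was not called without B1, B2 or E2 (0.093, 0.0866 and 0.0677) or after rescaling (0.108).

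Of the lower complex I genes, *Ndufb9* (chr15:58933810-58939489, plus strand; no overlap) was at 40.7, 39.6, 41.3 and 34.7 TPM in PrE cells against 69.5, 61, 71.8 and 63.9 TPM in ES cells. The groups were apart, with a difference of -0.75 (SE 0.09, adjusted p = 7.72e-05). *Ndufa7*, at 126 ± 16.7 TPM in PrE and 206 ± 23 TPM in ES cells (-0.71, adjusted p = 0.000925), shares exon sequence with *Rps28* on the other strand. *Ndufb4*, at 9.58 ± 1.86 TPM in PrE and 18.6 ± 3.46 TPM in ES cells (-0.89), is the gene read mainly from a retained intron. The assembly factors *Ndufaf2*, *Ndufaf5* and *Ndufaf6* were lower as well, *Ndufaf5* at 2.07 ± 0.31 TPM in PrE and 4.67 ± 0.73 TPM in ES cells (-0.88, adjusted p = 0.000242). *Ndufaf2* was not called without B1 or B2 (adjusted p of 0.0629 and 0.0676), and *Ndufaf6* not without B1, B2 or E2 (0.0973, 0.0614 and 0.08).

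Genes of the catalytic core of complex I did not move together: *Ndufs7* was higher, *Ndufv1* was lower and *Ndufs1*, *Ndufs3*, *Ndufs8* and *Ndufv2* did not pass the test. *Ndufv1*, which binds NADH, was at 57.3, 56.4, 63.8 and 56.7 TPM in PrE cells and at 77.3, 74.6, 86.7 and 89.1 TPM in ES cells, a difference of -0.48 without overlap (SE 0.09, adjusted p = 0.00118). *Ndufs7* was at 60.6 ± 6.24 TPM in PrE and 50.1 ± 4.61 TPM in ES cells (0.27, adjusted p = 0.0446). It was no longer called when any single plate was left out (adjusted p of 0.0681, 0.073, 0.132 and 0.0947 without B1, B2, E1 and E2) or after rescaling (0.326). *Ndufs1*, *Ndufs3*, *Ndufs8* and *Ndufv2* had differences of -0.27, 0.05, 0.03 and -0.11, with adjusted p of 0.0613, 0.79, 0.826 and 0.406 (0.0133 for *Ndufs1* with the plate block).

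Complex IV held the largest fall. *Cox7a1*, the isoform of subunit VIIa known from heart and skeletal muscle (ENSMUSG00000074218.3; chr7:30184144-30186078, plus strand; no overlap), was at 1.69, 0.893, 1.04 and 0.605 TPM in PrE cells on B1, B2, E1 and E2, against 11.4, 8.63, 9.04 and 7.22 TPM in ES cells. The groups were far apart, with 1.06 ± 0.46 TPM in PrE and 9.08 ± 1.74 TPM in ES cells and a difference of -2.30 (SE 0.18, adjusted p = 5.87e-06). *Cox7a2*, the widely used isoform, was at 75.1 ± 10.1 TPM in PrE and 67.8 ± 7.57 TPM in ES cells (adjusted p = 0.328), and *Cox7a2l*, which joins complexes III and IV into supercomplexes, was lower, at 49 ± 6.38 against 76.9 ± 8.74 TPM (-0.64, adjusted p = 0.00113). Without low-gene cells, *Cox7a1* made up 0.548 to 1.32% of the summed TPM of *Cox7a1*, *Cox7a2* and *Cox7a2l* in PrE cells and 4.94 to 7.25% in ES cells.

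In all, 3 complex IV genes were higher and 6 were lower of 13. *Cox5a*, a subunit on the matrix side of the enzyme (chr9:57521232-57532424, plus strand; exons overlap *Gm26631* on the other strand), was at 126, 120, 136 and 137 TPM in PrE cells against 189, 180, 197 and 201 TPM in ES cells. The groups did not overlap (-0.56, SE 0.08, adjusted p = 0.000232). *Cox6a1*, the common isoform of subunit VIa, moved the other way, with 464, 414, 425 and 406 TPM in PrE cells and 343, 300, 322 and 321 TPM in ES cells (0.41, SE 0.08, adjusted p = 0.00221). *Cox8a* was also higher and *Cox6c*, *Cox7b* and *Cox7c* were lower, and *Cox7c* was no longer called when protein-coding transcripts alone were summed (adjusted p = 0.144), nor was *Cox7b* without plate E2 (0.0933). *Cox6b2*, an isoform known from testis, was higher, at 36.5 ± 5.38 TPM in PrE and 24.7 ± 5.31 TPM in ES cells (0.56, adjusted p = 0.0163, and 0.0822 without plate B2). *Cox4i1*, at 340 ± 37.7 TPM in PrE and 367 ± 46.4 TPM in ES cells, did not pass the test (adjusted p = 0.481).

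In complex III, *Uqcr11* and the hinge protein gene *Uqcrh* were higher and none of the 8 was lower. *Uqcr11* was at 227, 185, 218 and 159 TPM in PrE cells and at 147, 123, 148 and 123 TPM in ES cells, which did not overlap (0.53, SE 0.13, adjusted p = 0.007). *Uqcrh* was at 103 ± 6.38 TPM in PrE and 81.9 ± 4.88 TPM in ES cells (adjusted p = 0.00561, and 0.0957 after rescaling). In complex V, *Atp5g1* was the only gene of 17 that was lower without the plate block, at 168, 118, 141 and 126 TPM in PrE cells against 207, 176, 192 and 203 TPM in ES cells (-0.50, SE 0.12, adjusted p = 0.00578, and 0.0507 without plate E2).

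**Figure D1:**
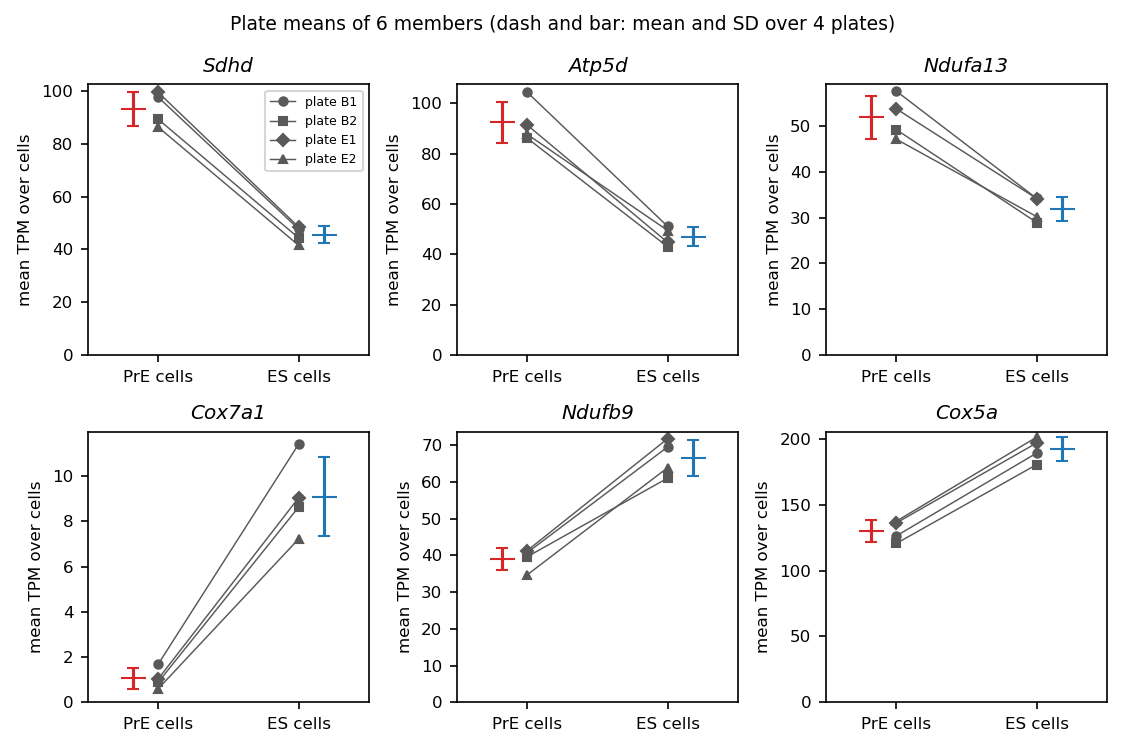
Mean TPM per plate in PrE cells (left of each panel) and ES cells (right) for *Sdhd*, *Atp5d*, *Ndufa13*, *Cox7a1*, *Ndufb9* and *Cox5a*; each point is the mean over the cells of 1 plate, lines join the same plate, and bars give the mean ± SD over 4 plates. The PrE means of *Sdhd*, *Atp5d* and *Ndufa13* all lie above the ES means and those of *Cox7a1*, *Ndufb9* and *Cox5a* all lie below them.

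Promoters were read for these genes, called or not, and for all genes. They were taken as the 250 bases before and 50 bases after the start of the gene in RefSeq (GRCm38.p6), and 80 of the 96 genes matched an entry. The windows were searched on both strands for GCGCATGC (reverse complement GCATGCGC), a core of sites for the factor NRF1, and for CCGGAAG (reverse complement CTTCCGG), a core of sites for factors of the ETS family, both long known near genes of the respiratory chain. A gene was counted where at least 1 of its windows held a match. The first was found in 15% of these 80 genes and in 3.05% of all 27025 genes, the second in 25% and 9.93%. The 27025 genes include those not tested on the plates. By the call on plates, CCGGAAG or its complement was found for 8 of 15 genes that were higher in PrE cells, for 1 of 12 that were lower (*Sdhb*) and for 10 of 50 that were not called. Of all genes tested on the plates and matched to a window, 20.9, 15.6 and 23.1% of those classes had it. GCGCATGC or its complement was found for 3 of 15, 2 of 12 and 7 of 50 of these genes in the same classes (20, 16.7 and 14%), and for 6.48, 5.29 and 6.38% of all genes in them. The calls were known when the genes were split by call, and the windows printed below were chosen after them. A match is a run of letters and not a bound site.

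The windows of 4 genes that were higher in PrE cells (*Sdhd*, *Cox6a1*, *Uqcr11*, *Ndufa13*) and of 3 that were lower (*Sdhb*, *Cox5a*, *Cox7a1*) are given 5′ to 3′ on the strand of the gene, to show windows with and without matches in both directions. Capitals mark the matches to either motif. The windows of *Ndufa13*, *Cox5a* and *Cox7a1* hold none, nor do those of *Atp5d*, which was higher.
Sdhd, chr9:50603800-50604099, minus strand: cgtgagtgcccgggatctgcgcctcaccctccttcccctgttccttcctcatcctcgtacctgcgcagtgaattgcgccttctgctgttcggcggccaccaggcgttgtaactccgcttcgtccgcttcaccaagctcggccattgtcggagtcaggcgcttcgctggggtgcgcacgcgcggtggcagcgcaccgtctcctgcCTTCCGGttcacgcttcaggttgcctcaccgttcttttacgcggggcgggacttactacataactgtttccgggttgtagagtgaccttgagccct
Cox6a1, chr5:115348909-115349208, minus strand: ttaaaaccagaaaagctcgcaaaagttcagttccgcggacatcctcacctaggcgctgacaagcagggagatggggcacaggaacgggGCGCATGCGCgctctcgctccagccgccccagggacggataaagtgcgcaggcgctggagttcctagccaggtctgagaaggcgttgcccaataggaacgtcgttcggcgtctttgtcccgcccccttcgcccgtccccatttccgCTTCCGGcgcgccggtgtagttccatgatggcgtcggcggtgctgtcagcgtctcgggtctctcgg
Uqcr11, chr10:80406772-80407071, minus strand: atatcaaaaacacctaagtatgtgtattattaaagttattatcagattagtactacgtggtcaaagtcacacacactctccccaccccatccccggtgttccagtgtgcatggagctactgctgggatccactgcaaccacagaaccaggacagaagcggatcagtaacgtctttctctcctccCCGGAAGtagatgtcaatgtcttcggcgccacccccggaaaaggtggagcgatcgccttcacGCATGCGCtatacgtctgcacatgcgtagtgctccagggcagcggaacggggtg
Ndufa13, chr8:69901971-69902270, minus strand: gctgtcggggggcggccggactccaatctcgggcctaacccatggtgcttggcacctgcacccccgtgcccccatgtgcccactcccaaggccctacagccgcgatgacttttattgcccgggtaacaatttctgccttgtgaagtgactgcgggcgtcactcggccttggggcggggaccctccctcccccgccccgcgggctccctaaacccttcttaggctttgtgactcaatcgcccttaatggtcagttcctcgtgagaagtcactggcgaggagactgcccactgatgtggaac
Sdhb, chr4:140961021-140961320, plus strand: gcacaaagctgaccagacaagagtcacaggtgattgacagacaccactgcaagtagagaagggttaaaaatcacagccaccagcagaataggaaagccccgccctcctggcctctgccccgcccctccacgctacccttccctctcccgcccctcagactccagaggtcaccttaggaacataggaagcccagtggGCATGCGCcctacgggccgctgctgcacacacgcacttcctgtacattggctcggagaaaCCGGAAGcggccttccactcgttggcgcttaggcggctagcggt
Cox5a, chr9:57520982-57521281, plus strand: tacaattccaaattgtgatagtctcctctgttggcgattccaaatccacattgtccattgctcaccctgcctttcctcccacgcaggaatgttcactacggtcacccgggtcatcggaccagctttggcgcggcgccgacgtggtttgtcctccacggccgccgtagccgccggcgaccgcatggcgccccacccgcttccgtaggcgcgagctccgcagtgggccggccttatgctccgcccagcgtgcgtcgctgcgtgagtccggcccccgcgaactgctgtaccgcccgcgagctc
Cox7a1, chr7:30183921-30184220, plus strand: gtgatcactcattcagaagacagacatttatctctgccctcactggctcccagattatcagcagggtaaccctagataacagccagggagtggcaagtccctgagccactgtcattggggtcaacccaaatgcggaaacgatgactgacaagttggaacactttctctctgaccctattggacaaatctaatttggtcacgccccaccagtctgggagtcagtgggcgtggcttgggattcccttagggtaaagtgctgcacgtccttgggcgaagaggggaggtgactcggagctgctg

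The time course asks when these genes change after dexamethasone. Each time was 1 set of cells, so there is no replicate check, and a gene counts as past the fold where log2(mean TPM + 1) differs from 0 h by 1.5-fold or more. At 12 h, none of the 91 genes with a mean of at least 1 TPM was higher and 4 were lower, where 7.73% of all genes were higher and 13.7% were lower. At 24 h, 2 were higher and 3 were lower (21.8% and 11.4% of all genes), at 48 h 2 and 6 (24% and 18.8%), and at 72 h 2 and 15 (23% and 22.8%). After rescaling over nuclear protein-coding genes, which lowered the median difference of all genes by 0.11 at 24 h and 0.14 at 48 h, 3 were higher and 14 were lower at 48 h. The share of all genes past the fold after rescaling is not given here, so this count cannot be read as particular to these genes. The median difference of the genes was -0.13, 0.03, -0.10 and -0.22 at 12, 24, 48 and 72 h, and that of all genes -0.07, 0.18, 0.06 and -0.02.

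*Sdhd* and *Ndufa13* were the only genes past the fold upward at 72 h, by 0.72 and 0.63. *Sdhd* averaged 41, 40.1, 63, 77.6 and 68.1 TPM at 0, 12, 24, 48 and 72 h, so its mean was above that of 0 h from 24 h on. Its cells spread from 37.6 to 111 TPM around a median of 65.5 TPM at 72 h and from 15.4 to 84.3 TPM around 39.98 TPM at 0 h, and these ranges overlap. *Ndufa13* averaged 20.5, 20.1, 22.9, 30.1 and 32.2 TPM. *Sdhaf2*, which helps to attach FAD to *Sdha* protein, was past the fold at 24 and 48 h, by 0.65 and 0.71.

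*Cox7a1* was past the fold downward at 48 and 72 h only. It averaged 15.4, 22.2, 11.1, 1.16 and 1.12 TPM at 0, 12, 24, 48 and 72 h, and 96.7, 100, 94.6, 32.2 and 37.6% of the cells had at least 1 TPM. The median over cells was 14.1, 17.5, 9.30, 0 and 0 TPM, so that it was highest at 12 h and at 0 TPM in most cells from 48 h on. *Atp5g1* was also highest at 12 h, with 158, 186, 163, 119 and 78.9 TPM, and was past the fold at 72 h (-0.99). *Cox5a* and *Ndufv1* had their highest level at 0 h, with 191, 138, 141, 129 and 110 TPM for *Cox5a* and 76.7, 61.9, 58.7, 52.2 and 42 TPM for *Ndufv1*, and were past the fold at 72 h by -0.79 and -0.85. *Ndufb9* averaged 80.3, 70.4, 72.2, 61.3 and 44.8 TPM (-0.83 at 72 h). Others past the fold downward at 72 h were *Ndufaf5*, *Ndufaf2*, *Ndufa7*, *Ndufb4*, *Atp5sl*, *Cox7c*, *Cox6c*, *Ndufs6* and *Ndufa4l2*. Of these, *Ndufb4* differed by -0.68 over all its transcripts and by -0.21 over the protein-coding one.

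*Cox6b2* was lowest in the middle of the time course. It averaged 16.3, 5.67, 5.73, 8.50 and 20.7 TPM at 0, 12, 24, 48 and 72 h, with medians over cells of 11, 4.28, 3.45, 6.22 and 15.3 TPM. It was past the fold downward at 12, 24 and 48 h, by -1.38, -1.36 and -0.87, and not at 72 h. *Ndufa4l2*, a paralogue of *Ndufa4* known as a gene that hypoxia turns on, was lower than at 0 h at every later time, with 9.69, 0.635, 0.705, 0.0733 and 0.0456 TPM, and 93.5, 23.1, 21.5, 2.30 and 1.08% of the cells at or above 1 TPM. Its level in untreated ES cells differed between the sets of cells, of which the plates and C1 also had protocols of their own: 0.766, 1.07 and 0.801 TPM in S, G2/M and G1 cells, 1.02 to 1.65 TPM on the plates and 6.25 TPM on C1. On the plates it was at 0.0867, 0, 0.135 and 0.0615 TPM in PrE cells and at 1.20, 1.02, 1.65 and 1.08 TPM in ES cells (-1.06, SE 0.11, limma adjusted p = 3.32e-05). Its exons overlap *Shmt2* on the other strand.

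**Figure D2:**
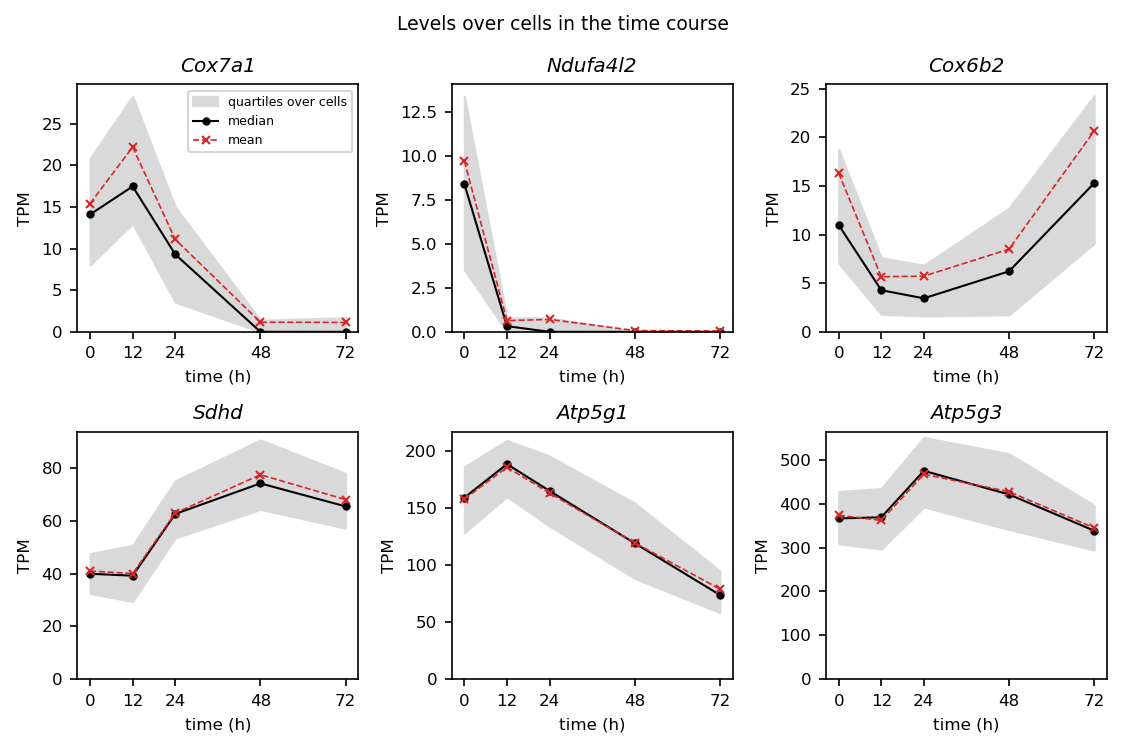
TPM over the cells at 0, 12, 24, 48 and 72 h of dexamethasone for *Cox7a1*, *Ndufa4l2*, *Cox6b2*, *Sdhd*, *Atp5g1* and *Atp5g3*; the grey band spans the quartiles over the cells of a time, black points are medians and red crosses are means. *Cox7a1* is near 0 from 48 h on, *Cox6b2* is lowest at 12 and 24 h, and *Sdhd* is higher from 24 h on.

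The c subunit of ATP synthase has 3 genes that encode the same mature protein behind different import sequences. Their shares are shares of RNA over all annotated transcripts of each gene, and which gene supplies the protein was not tested. *Atp5g1* held 28.3, 32.6, 24.9, 21.1 and 17.8% of the summed TPM of the 3 genes at 0, 12, 24, 48 and 72 h, and *Atp5g3* held 67.2, 63.7, 71.4, 75.5 and 78%. In C1 cells the share of *Atp5g1* was 18.7% in PrE and 28.4% in ES cells. On the plates without low-gene cells it was 25.9, 20.4, 21.5 and 22.1% in PrE cells and 33.9, 31.6, 30.6 and 34.4% in ES cells on B1, B2, E1 and E2, so that the share was lower in PrE cells on each plate. *Atp5g3* itself was at 450 ± 23.1 TPM in PrE and 444 ± 144 TPM in ES cells on the plates, where 1 ES cell on B2 with 70 genes detected held 47.2% of its set. Without low-gene cells it was called higher in PrE cells (adjusted p = 0.0126, against 0.783 with them).

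The C1 cells were 1 set of each type, and 2 of 92 genes were past the fold upward and 12 downward in PrE cells, where 28.5% and 22% of all genes were. *Sdhd* averaged 179 ± 33 TPM over 39 PrE cells and 93 ± 33.4 TPM over 16 ES cells (0.94), with 103 to 261 TPM around a median of 181 TPM in PrE cells and 15.9 to 173 TPM around 96.0 TPM in ES cells. *Cox7b2*, an isoform known from testis, was the other gene past the fold upward (0.79), at 1.91 TPM in PrE and 0.687 TPM in ES cells. Its median was 0 TPM in both, 6 of 39 PrE cells and 2 of 16 ES cells had at least 1 TPM, and 1 PrE cell held 47.8% of the PrE sum. Without that cell the difference was 0.26 and not past the fold, and without the highest cell of both types it was 0.85. *Cox7a1* averaged 3.59 TPM in PrE and 28.1 TPM in ES cells (-2.66), with a median of 0 TPM in PrE cells, 7 of which had at least 1 TPM, and of 14.3 TPM in ES cells, all 16 of which did. The other genes past the fold downward were *Ndufa4l2*, *Ndufb4*, *Ndufaf2*, *Cox7c*, *Ndufaf5*, *Sdhb*, *Ndufa7*, *Ndufv1*, *Atp5g1*, *Ndufb9* and *Sdhaf3*, from -2.64 to -0.64.

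The 3 sets of PrE and ES cells share no cell, and their values can be set side by side for the 90 genes. The 17 genes that were lower in PrE cells on the plates were all lower in sign at 72 h and on C1, as 90.9% of all genes called lower were. Of the 16 that were higher, 12 were higher in both, against 88.8% of all genes called higher. The exceptions were *Ndufa8*, *Ndufb6* and *Uqcrh*, with -0.09, -0.30 and -0.27 at 72 h, and *Sdhaf1*, with -0.15 on C1. Of the 90 genes, 20 were higher in all 3 sets and 36 were lower, 22.2% and 40%, where 40.2% and 33.4% of 15279 genes were. Pearson's r over the 90 genes was 0.79 between time course and plates, 0.92 between time course and C1 and 0.83 between plates and C1, and 0.92, 0.90 and 0.88 over all genes. The genes are not independent points, and *Cox7a1* and *Ndufa4l2* lie far from the rest. The plate values here keep the low-gene cells, and the comparison was not repeated without them. *Sdhaf2* was at 1.95 on the plates, 0.42 at 72 h and 0.42 on C1, and *Atp5a1* at 0.69, -0.53 and -0.006. On B2, 1 PrE cell held 97.2% of the summed *Sdhaf2* TPM and another held 78.5% of that of *Atp5a1*. How far such cells set r was not tested.

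**Figure D3:**
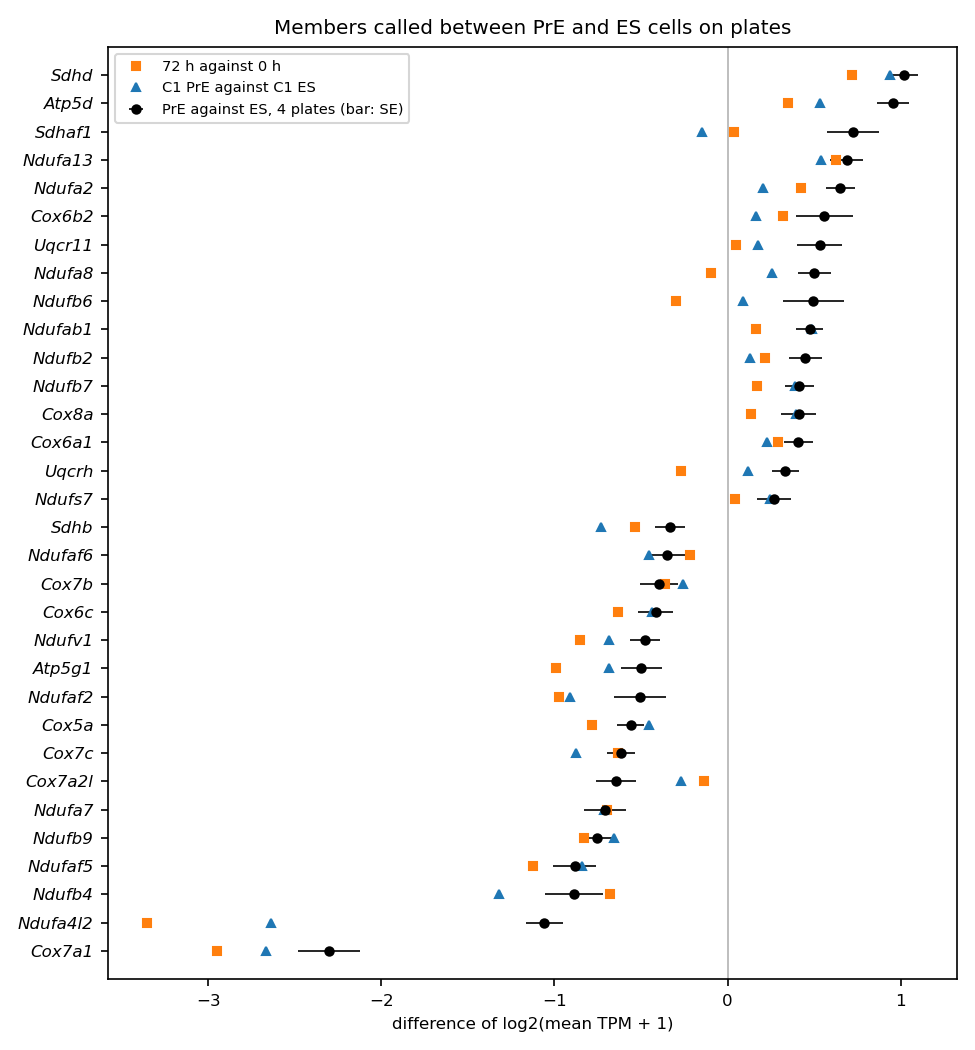
Differences of log2(mean TPM + 1) of PrE from ES cells for 32 of the 33 genes called on the plates: the limma estimate over 4 plates with its SE, 72 h against 0 h, and C1 PrE against C1 ES cells. The genes called lower lie left of 0 in all 3 sets, and *Ndufa8*, *Ndufb6*, *Uqcrh* and *Sdhaf1* have points on both sides of 0.

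Summed over the 96 genes, the level differed less within the time course, within the plates or within C1 than that of many single genes. Between these the gap was wider: untreated ES cells had 8764 TPM at 0 h and 16900 TPM on C1. The library protocols differed too, so this gap cannot be told apart from a difference of method. The sum was 8764 ± 918, 8007 ± 1608, 9066 ± 1693, 8465 ± 2060 and 7414 ± 1124 TPM at 0, 12, 24, 48 and 72 h (SD over cells), a log2 ratio of -0.24 at 72 h and of -0.25 after rescaling. At 24 and 48 h the ratio depended on the scale, at 0.05 and -0.05 as deposited and -0.11 and -0.21 after rescaling. On C1 it was 15976 ± 1826 TPM in PrE and 16900 ± 2325 TPM in ES cells, and on the plates without low-gene cells 9725, 9698, 10131 and 8579 TPM in PrE and 9690, 9831, 9781 and 8890 TPM in ES cells, so that PrE sums were above ES sums on B1 and E1 and below on B2 and E2. This order depended on the cells and the scale. With all cells, the log2 ratio of PrE to ES sums was 0.097, 0.13, -0.14 and -0.064 on B1, B2, E1 and E2 as deposited and -0.031, -0.041, -0.22 and -0.18 after rescaling. Across the 92 cells at 0 h, the sums of complexes I and IV had a Spearman rho of 0.72 and those of I and V of 0.68, and across the 93 cells at 72 h of 0.82 and 0.83. Complexes were taken by name here, so the sum of complex I holds *Ndufa4*, now counted with complex IV, and assembly factors. All values of a cell share 1 library and its scaling. With the sum of the 13 protein-coding genes of the mitochondrial genome, the sum of the 96 genes had a rho of 0.15, 0.71, -0.064, 0.056 and 0.03 at 0, 12, 24, 48 and 72 h, so that the 12 h cells stood apart.

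Between phases of the cell cycle, none of these genes was past the fold, neither in S cells (90 genes; 4.18% of all genes higher and 1.9% lower than in G1) nor in G2/M cells (92 genes; 4.04% higher and 1.08% lower). The largest differences among genes of at least 10 TPM were *Ndufs7* in S cells, with 48.4 TPM against 36 TPM in G1 cells (0.42), and *Cox7a1* downward, with 8.90 against 12.2 TPM (-0.41). In G2/M cells *Ndufaf3* was at 12.6 TPM against 8.85 TPM in G1 cells (0.46) and *Ndufv3* at 45.6 against 58.3 TPM (-0.35). The sum was 8548 ± 840 TPM in S, 7781 ± 819 TPM in G2/M and 7907 ± 1287 TPM in G1 cells. *Cox6a2*, the muscle isoform of subunit VIa, was at 1.34, 1.40 and 1.22 TPM in S, G2/M and G1 cells and at 0 TPM in 0 h cells, so the sets of untreated ES cells differed for this gene too.

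To set the spread between cells beside that of the method, the coefficient of variation (CV, the SD over the mean) was taken over 93 G1 cells and over 9 wells that each held 1 cell's amount of a lysate of 180 G1 cells. Of 79 genes with at least 10 TPM in G1 cells, 68 had a higher CV over cells than over wells. This count was not taken for other genes, so it cannot be read as particular to these. The median CV was 0.301 over cells, 0.245 over lysate wells and 0.242 over 9 wells of 10 pg RNA, against 0.417, 0.302 and 0.313 for 5836 protein-coding genes of that level. Over the 0 h cells, among the 78 genes with at least 10 TPM at 0 h, the lowest CVs were those of *Atp5b* (0.149), *Cox5a* (0.160), *Cox4i1* (0.161), *Atp5a1* (0.163) and *Atp5e* (0.173), and the highest were those of *Cox6b2* (0.918), *Cox7a1* (0.710), *Ndufaf3* (0.639), *Ndufaf6* (0.499) and *Ndufa5* (0.471). *Cox6b2* had a CV of 0.583 over G1 cells and 0.245 over lysate wells and *Cox7a1* of 0.916 and 0.617. *Ndufaf4*, with 0.501 over cells and 0.648 over wells, had the reverse order.

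**Figure D4:**
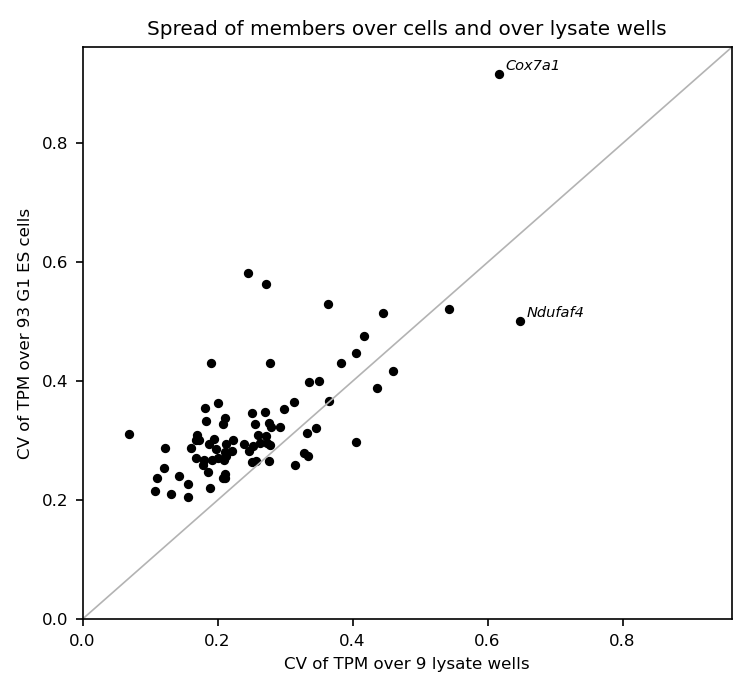
CV of TPM over 93 G1 cells against that over 9 wells of averaged G1 lysate, 1 point per gene for the 79 genes with a mean of at least 10 TPM in G1 cells; the line marks equal values. Of the points, 68 lie on the side of the higher CV over cells, a count not taken for other genes.

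The libraries from 10 pg of RNA ask how the methods differ for these genes. None of the 91 genes tested was higher in RamDA-seq than in SMART-Seq v4 and 56 were lower, where 7.43% of all 12566 genes were higher and 6.62% were lower (edgeR quasi-likelihood test on rounded estimated counts, TMM scaling, adjusted p of at most 0.05). At an unadjusted p below 0.05 there were 70 genes. DESeq2 called 67 of 92 lower and 0 higher, where 8.14% of all genes were lower and 15.5% were higher. Without RamDA-seq replicate 3, 36 of 92 were called lower and 0 higher, where 2.87% and 1.42% of all genes were. The genes took 0.624, 0.611 and 0.614% of the estimated counts of the RamDA-seq libraries and 2.53, 2.43, 2.38 and 2.49% of those of the SMART-Seq v4 libraries, which summed to 5706350 to 5733650 and 8741110 to 8780980 counts. The median log2 fold was -1.74, and that of all genes 0.12. By library size alone, a scaling tried after the data were seen, these medians were -2.41 and -0.54, with 75 genes lower and 0 higher. Of all genes, 14.3% were then lower and 5.85% were higher. The libraries are technical replicates of 1 RNA.

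*Uqcrb*, a small subunit of complex III, had 73, 63 and 65 counts in RamDA-seq and 2181, 1999, 2803 and 2108 counts in SMART-Seq v4 libraries, the widest gap of these genes (log2 fold -3.80, SE 0.24, edgeR adjusted p = 0.000137). *Ndufa5* had 34, 28 and 29 counts against 737, 1114, 703 and 1020 (-3.60, SE 0.45, adjusted p = 0.00300). *Atp5b* had 6350, 6026 and 6129 counts in RamDA-seq against 28363, 28268, 29527 and 28482 in SMART-Seq v4 libraries, a smaller fold (-0.94, SE 0.05, adjusted p = 6.93e-05). *Atp5a1* did not pass the test with 4255, 4016 and 4154 counts against 10938, 8924, 7678 and 10400 (0.08, adjusted p = 0.812), and by library size alone it was lower (-0.58, adjusted p = 0.0175). *Sdhd* had 388, 294 and 228 counts against 937, 2012, 795 and 2957, and its SMART-Seq v4 libraries differed among themselves by more than 3-fold (-1.18, SE 0.51, adjusted p = 0.191). By complex, 27 of 45 genes of complex I, 1 of 8 of complex II, 6 of 8 of complex III, 11 of 13 of complex IV and 11 of 17 of complex V were lower. Of the 13 protein-coding mitochondrial genes, 6 were higher and 3 were lower.

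The fold was related to length. By the length of the transcript with the most TPM, the median fold was -2.04 for 28 genes under 500 bases, -1.84 for 40 of 500 to under 1000 bases and -1.04 for 23 of 1000 bases and over, with a Spearman rho of 0.43 over the 91 genes, a description of genes that share the libraries. By the median length of protein-coding transcripts, the medians were -1.85, -1.87 and -1.18 for these genes in the same classes and -0.27, -0.65 and 0.20 for all protein-coding genes. The genes thus lay below other genes in each class of length, and how far length sets the fold was not tested.

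**Figure D5:**
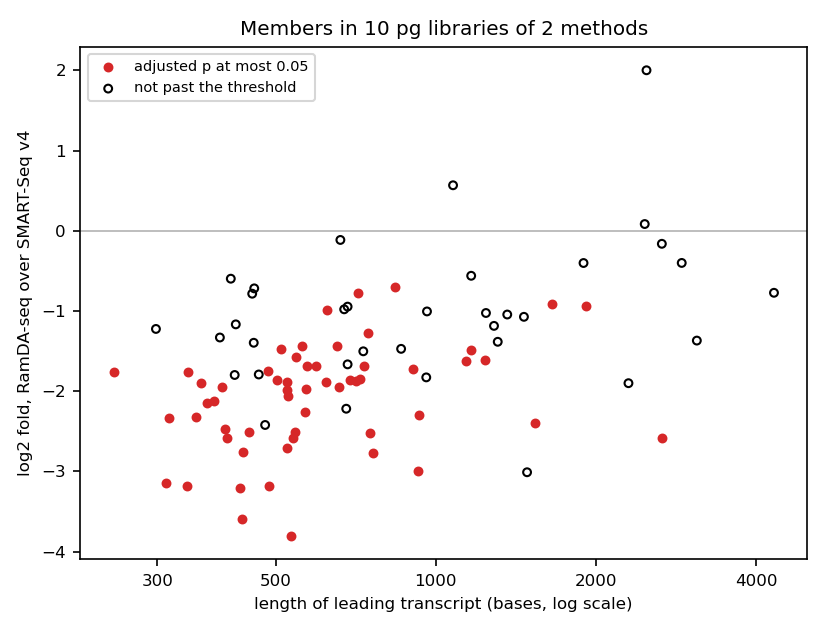
Log2 fold of RamDA-seq over SMART-Seq v4 (edgeR, 10 pg of RNA) against the length in bases of the transcript with the most TPM (log axis), 1 point per gene for 91 genes; the line at 0 marks equal scaled counts. Most points lie below 0, and the median is -2.04 under 500 bases and -1.04 from 1000 bases on.

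For 1 µg of ES cell RNA, 42 of 91 genes were higher and 12 were lower in rdRNA-seq than in paRNA-seq after TMM scaling, where 23.8% of 14347 genes were higher and 26% were lower. This split rests on the scaling: by library size alone, 9 were higher and 46 were lower, where 9.75% of all genes were higher and 53.4% were lower, and the median of all genes was -0.31 in place of 0.01. The genes took 0.907, 0.896 and 0.948% of the counts of the rdRNA-seq libraries and 1.04, 1.04 and 1.06% of those of the paRNA-seq libraries. Under both scalings *Atp5g1* was higher in rdRNA-seq, with 727, 760 and 863 counts against 668, 724 and 814 (0.67, SE 0.07, adjusted p = 1.51e-05; 0.36 by library size, adjusted p = 0.00132), as were *Ndufb7*, *Ndufa2*, *Ndufa11* and *Ndufaf3*. Under both, *Ndufa12* was lower, with 37.8, 43.5 and 44.7 counts in rdRNA-seq against 121, 116 and 119 in paRNA-seq (-0.90, SE 0.13, adjusted p = 0.000118; -1.22 by library size, adjusted p = 3.74e-06), as were *Ndufb10*, *Cox7c* and *Atp5sl*. *Atp5b* had opposite signs, at 0.20 after TMM scaling and -0.12 by library size.

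Other genes of the pathway, from lists fixed by function, were set beside these on the plates, where 35.1% of all genes were higher and 25.1% were lower in PrE cells. Of 13 protein-coding genes of the mitochondrial genome, none was higher and *mt-Co3*, a core subunit of complex IV, was lower, at 446 ± 44.3 TPM in PrE and 772 ± 126 TPM in ES cells (-0.78, limma adjusted p = 0.000972). Of 36 assembly factors outside the 96 genes, 16 were higher and 1 was lower (median 0.21), among them *Sco2*, which brings copper to complex IV, at 8.80 ± 1.10 TPM in PrE and 1.39 ± 0.42 TPM in ES cells (2.04, adjusted p = 3.34e-06). Of 17 genes of the tricarboxylic acid cycle and pyruvate dehydrogenase, 8 were higher and 3 were lower. Of 16 genes of electron carriers and of partners of ATP and ADP, 5 were higher and 5 were lower, with *Slc25a4*, the heart and muscle form of the ADP/ATP carrier, at 92.5 ± 9.66 TPM in PrE and 14.8 ± 1.10 TPM in ES cells (2.56, adjusted p = 6.66e-08), and *Chchd10*, a protein of the intermembrane space, at 6.68 ± 1.21 TPM in PrE and 255 ± 11.2 TPM in ES cells (-5.07, adjusted p = 5.74e-09). Of 17 regulators of mitochondrial genes, 2 were higher and 6 were lower. *Gabpa*, an ETS factor, was at 13.1 ± 2.19 TPM in PrE and 26.6 ± 3.35 TPM in ES cells (-0.97, adjusted p = 0.0002), and *Nrf1* at 65.5 ± 3.80 and 63.4 ± 2.93 TPM (0.05, adjusted p = 0.623).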

How the data were processed

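The authors trimmed reads with Fastq-mcf and quantified transcripts with Sailfish, unstranded, on GENCODE vM9 or on models merged from it and from transcripts assembled with HISAT2 and Cufflinks. For cells, plates and lysate wells they deposited TPM per transcript, which carry no depth. The TPM used here were those on GENCODE vM9, and for the time course those on the merged models were an alternative. For libraries from 10 pg and 1 µg of RNA they deposited estimated counts per transcript. Here transcripts were summed per gene, and estimated counts were rounded. Plate means were compared with limma 3.58.1 (trend, pseudocount 1, genes with at least 1 TPM in 4 of 8 means) and libraries with edgeR 4.0.16 (R 4.3.3), at an adjusted p of 0.05 over all genes. Single sets of cells were described by a 1.5-fold change (mean of at least 1 TPM). Python 3.11.15 was used otherwise. The labels give each plate as a batch that both cell types share. The correlation between the PrE and the ES deviation from their group means was 0.085 on B1, 0.040 on B2, 0.099 on E1 and 0.065 on E2, above every correlation with another plate.

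The members and lists were chosen with earlier results of these data known. Named with values were isoform pairs, the complex I core, the F1 head, the 10 genes of largest difference each way (at least 10 TPM or 100 counts) and the 5 of highest and lowest CV, with others singled out after their values were seen (genes at low levels and genes outside the 96). Alternatives were other scalings, filters, pseudocounts and tools, medians, low-gene cells dropped (detected genes more than 1.5 interquartile ranges under the lower quartile), a block for replicate number, single replicates left out, and, added after the data were seen, protein-coding transcripts alone, library size alone and, on C1, the highest PrE cell of each gene left out. The tests were tested on simulated data. In the tables, 8 columns of other methods were not used. No proteins were used here, and 1 gene is not reported by name.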

Additional observations from a re-analysis of the deposited data

Results flagged for a closer look

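Among 98 sets of 4 plate means, 8 held a mean far from the other 3 by Dixon's test, where chance gives about 1 in 20. In 6 of them, 1 cell with 28 to 70 genes detected held much of the sum. *Atp5a1* was at 1367 TPM in PrE cells on B2 (78.5% in a cell with 31 genes), *Atp5c1* at 325 TPM there (72.5%, 55 genes) and *Sdhaf2* at 220 TPM there (97.2%, 28 genes). *Uqcrc1* was at 987 TPM in ES cells on B2 (80.1%, 64 genes), *Atp5g3* at 659 TPM there (47.2%, 70 genes) and *Atp5b* at 2722 TPM in ES cells on E1 (59.5%, 64 genes). Without low-gene cells the means were 337, 102, 6.89, 240, 426 and 1130 TPM. *Sdhaf2* was then called higher in PrE cells (limma adjusted p = 0.000387, against 0.14 with these cells). The other 2 means that stood apart were *Ndufv1* at 63.8 TPM in PrE cells on E1 and *Cox6a2* at 0.205 TPM in ES cells on E1. For *Cox6a2* the other 3 means were equal, so that any mean above them would stand apart. Its mean on E1 came from few cells: 2 of 40 had at least 1 TPM, and 1 cell held 64.6% of the sum.

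The sign of 4 genes called higher in PrE cells on the plates differed in another set of cells, a difference that was not tested. It was -0.095 for *Ndufa8*, -0.30 for *Ndufb6* and -0.27 for *Uqcrh* at 72 h against 0 h, and -0.15 for *Sdhaf1* on C1.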

How the results depend on the processing

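The count of 33 genes called on the plates was 13 with an added fold of 1.5, 47 with the replicate block (plate), which lost none of the 33, 41 without low-gene cells and 27 to 33 with a plate left out. For RamDA-seq against SMART-Seq v4, 56 became 21 with a replicate block, whose numbers do not pair these libraries, and 36 to 57 with a library left out, the lowest without RamDA-seq replicate 3. For rdRNA-seq against paRNA-seq, 54 became 55 with the block, 43 with DESeq2 and 49 to 54 with a library left out. At 2-fold, 2, 2, 2 and 3 genes were past the fold at 12, 24, 48 and 72 h and 3 on C1. After rescaling, 17 were past the fold at 48 h and 1 in G2/M cells, counts given without the share of all genes. The summed level then gave -0.11 at 24 h and -0.21 at 48 h. In G2/M cells 1 gene was past the fold with a pseudocount of 0.1, and in S cells 1 with protein-coding transcripts alone. By library size alone, the rdRNA-seq to paRNA-seq folds of *Atp5b*, *Cox7a2*, *Cox7a2l*, *Cox8a*, *Ndufs1*, *Ndufs3* and *Ndufv2* turned negative, at -0.12, -0.031, -0.064, -0.13, -0.20, -0.041 and -0.15. No other called value of a named gene changed direction in the alternatives run. Over all values of the genes named here and all alternatives, 2491 kept their direction and their side of the threshold, 64 no longer passed it, 39 newly passed it and 11 with no test moved by more than the spread over cells.

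Times, phases and C1 types are single sets, so their differences have no replicate error. TPM carry no depth.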
